A study of Mus musculus with 3 samples.

Results

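Shared far regions are stretches of the mouse genome that held an accessible-chromatin peak in each of 3 brain libraries and lay more than 100 kb from the span of the nearest protein-coding gene. They were selected on measured values, namely the presence of a peak in all 3 libraries, after overlapping peaks had been merged into union regions. Of 825954 union regions, 163469 lay beyond 100 kb from a protein-coding gene, and 38237 of these had a peak of every library. The selection rests on the library with the fewest peaks: without it, 77940 far regions were shared by the other 2. Peaks came from single-cell combinatorial indexed ATAC-seq, in which the transposase Tn5 cuts open chromatin and leaves barcoded adapters there. All 3 libraries were made from nuclei of whole brain of C57BL6 mice that had been minced, dounced and tagmented in wells before indexed PCR on a nanowell chip. They were named sciATACv1, sciATACv2 and sciATACv3 (v1, v2 and v3 below), and no treatment or genotype distinguished them. What set the versions apart, the age and sex of the mice and the number of animals were not given in the sources used here.

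Each version had 1 library, so the spread between replicates was unknown and no test was run. The deposited lists held 622754 peaks for v1, 850991 for v2 and 512023 for v3, with coordinates only, and depth was unknown. Peaks at an end of marker genes of brain cell types were found for 21 of 22 genes in v1 and for 22 of 22 in v2 and in v3; for 6 hepatocyte genes the count was 3 in each library. All 95% intervals of percentages below are exact Clopper-Pearson intervals and cover counting error only.

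Accessible chromatin far from genes is often distal regulatory DNA. Enhancers can act on a promoter across long distances when the intervening chromatin folds into a loop or domain, and several developmental genes are flanked by gene deserts that hold many such elements. Sequence without protein-coding genes also carries long noncoding RNA (lncRNA) genes, whose transcripts are spliced but not translated, and microRNA (miRNA) genes. A mature miRNA guides silencing complexes to messenger RNAs by pairing through its seed, bases 2 to 8.

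Among the 38237 regions, 43 held the genes of 70 miRNAs. The mature sequences shown are a selection of those whose seeds recur between these regions, together with miR-137, whose gene lay in the widest shared far region. They are written 5′ to 3′ from RefSeq on GRCm38.p6, the assembly of the mm10 build, with the seed in capitals.
mmu-miR-137-3p: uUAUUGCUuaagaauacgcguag
mmu-miR-344-5p: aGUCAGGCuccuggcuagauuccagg
mmu-miR-344b-5p: aGUCAGGCuccuggcuaaaguuc
mmu-miR-344c-5p: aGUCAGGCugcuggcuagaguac
mmu-miR-344g-5p: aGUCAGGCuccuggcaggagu
mmu-miR-344d-3p: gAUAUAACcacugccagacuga
mmu-miR-344e-3p: gAUAUAACcaaagccugacuau
mmu-miR-410-3p: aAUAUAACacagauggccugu
mmu-miR-379-5p: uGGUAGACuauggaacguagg
mmu-miR-1193-5p: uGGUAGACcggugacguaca
mmu-miR-99a-5p: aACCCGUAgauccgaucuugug
mmu-miR-100-5p: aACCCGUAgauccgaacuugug
The seed GUCAGGC was carried by 6 mature miR-344 forms, the largest seed group. The seed AUAUAAC was carried by 3 mature forms, miR-344d-3p and miR-344e-3p from chromosome 7 and miR-410-3p from chromosome 12. The seed GGUAGAC joined 2 members of the chromosome 12 cluster, and ACCCGUA joined miR-99a-5p of chromosome 16 with miR-100-5p of chromosome 9. Mature sequences were found for 67 of the 70 genes, and none for Mir124a-2, Gm51272 and Mir5099. Over all 113 mature sequences there were 96 seeds, of which 12 occurred more than once.

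The start windows of 4 lncRNA genes that hold many shared far regions are shown because each lay whole in such a merged region. Whether the peaks of each single library covered the start itself was not measured. Each is the RefSeq promoter window on GRCm38.p6, from 250 bases before to 50 bases after the start, on the gene's strand, in lower case with CpG dinucleotides in capitals.
5730522E02Rik, chr11:26210527-26210826, minus strand: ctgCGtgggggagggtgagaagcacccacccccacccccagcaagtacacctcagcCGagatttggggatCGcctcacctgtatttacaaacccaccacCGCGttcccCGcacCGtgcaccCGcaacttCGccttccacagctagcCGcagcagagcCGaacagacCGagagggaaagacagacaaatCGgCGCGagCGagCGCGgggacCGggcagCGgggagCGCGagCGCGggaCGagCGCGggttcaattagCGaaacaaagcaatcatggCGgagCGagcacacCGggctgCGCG
Lncpint, chr6:31218425-31218724, minus strand: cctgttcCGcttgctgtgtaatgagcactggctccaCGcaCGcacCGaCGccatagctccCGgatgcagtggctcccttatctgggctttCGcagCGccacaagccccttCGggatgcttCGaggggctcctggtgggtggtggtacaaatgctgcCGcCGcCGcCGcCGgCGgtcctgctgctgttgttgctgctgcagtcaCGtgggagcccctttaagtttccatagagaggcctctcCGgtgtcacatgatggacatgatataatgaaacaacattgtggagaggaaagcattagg
Mir99ahg, chr16:77329078-77329377, plus strand: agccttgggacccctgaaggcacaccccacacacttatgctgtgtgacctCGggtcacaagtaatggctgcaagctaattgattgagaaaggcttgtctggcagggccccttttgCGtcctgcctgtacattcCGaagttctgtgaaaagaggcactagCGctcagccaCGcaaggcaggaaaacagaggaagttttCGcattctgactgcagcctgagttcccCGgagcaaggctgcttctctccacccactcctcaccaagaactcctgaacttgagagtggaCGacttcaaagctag
Gm30382, chr3:149445550-149445849, minus strand: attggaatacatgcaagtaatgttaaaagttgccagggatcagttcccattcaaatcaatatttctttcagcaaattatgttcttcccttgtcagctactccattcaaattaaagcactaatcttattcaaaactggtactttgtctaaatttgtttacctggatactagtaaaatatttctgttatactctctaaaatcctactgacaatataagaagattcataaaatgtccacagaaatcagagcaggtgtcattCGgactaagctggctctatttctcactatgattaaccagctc
The 5730522E02Rik window had 33 CpG and a GC content of 65.3%. The Lncpint window had 18 CpG at 58.7% GC, the Mir99ahg window 8 at 53.7%, and the Gm30382 window 1 at 33.7%. The 4 windows thus ran from CpG-dense to nearly free of CpG, and each lay whole in a region found by all 3 libraries. The region at the Gm30382 start was 4311 bp wide, with 2999 bp covered by v1 peaks, 3682 bp by v2 and 4137 bp by v3. At the 5730522E02Rik start the region was 2259 bp wide, and the peaks covered 1998 bp in v1, 1907 bp in v2 and 2248 bp in v3.

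A smaller share of regions far from genes was found by all libraries than of regions in or near genes. Of the far union regions 23.4% (23.2 to 23.6%) were shared by all 3 libraries, 28.5% by 2 and 48.1% belonged to 1. Inside protein-coding gene spans 47.1% were shared (47.0 to 47.3%), within 10 kb of a gene 37.0%, and from 10 to 100 kb 31.9%. The intervals of the far and the other classes did not overlap, but they treat neighbouring regions as independent and give no test between classes. Far sequence, the sequence more than 100 kb from any protein-coding gene, made up 712 Mb or 27.7% of the span examined. It held 19.8% of all union regions and 11.9% of those shared by all 3. Per Mb there were 53.7 shared regions in far sequence, 78.9 from 10 to 100 kb, 93.3 within 10 kb and 209 in genes. Union regions of any kind differed less, with 230 per Mb in far sequence and 248 per Mb from 10 to 100 kb.

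The libraries differed in how much of their list lay far from genes. Far peaks were 16.2% of the v1 list, 17.6% of the v2 list and 12.3% of the v3 list. Far regions with a peak of v1 and v2 but not v3 were 22.0% of all far regions, against 13.2% of regions up to 100 kb from a gene. Those with v2 and v3 but not v1 were 5.19% far from genes and 7.36% up to 100 kb, and those with v1 and v3 but not v2 were 1.38% and 1.36%. Regions of v2 alone were the largest class far from genes, at 33.8%, and v3 alone the smallest of the single-library classes, at 5.80%.

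Within far sequence the shared regions thinned out further with distance. Shared regions per Mb were 68.1 from 100 to 200 kb, 57.2 from 200 to 500 kb, 38.6 from 500 kb to 1 Mb and 25.6 beyond 1 Mb; from 50 to 100 kb, just outside the selection, there were 75.1. The part of union regions that was shared fell with the same steps, from 30.4% at 50 to 100 kb through 28.0, 24.3 and 18.2% to 12.9% beyond 1 Mb. The slope differed between the lists. Regions with a v3 peak went from 112 per Mb at 50 to 100 kb through 103, 87.0 and 60.8 to 41.8 per Mb beyond 1 Mb. Regions with a v1 peak went from 133 to 110 per Mb and those with a v2 peak from 210 to 169 per Mb over the same steps. Without v3, the share found by both other libraries was 48.9% at 50 to 100 kb and 46.3% beyond 1 Mb, nearly level. Without v1 it went from 39.9 to 17.9%, and without v2 from 47.4 to 22.1%.

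**Figure D1:**
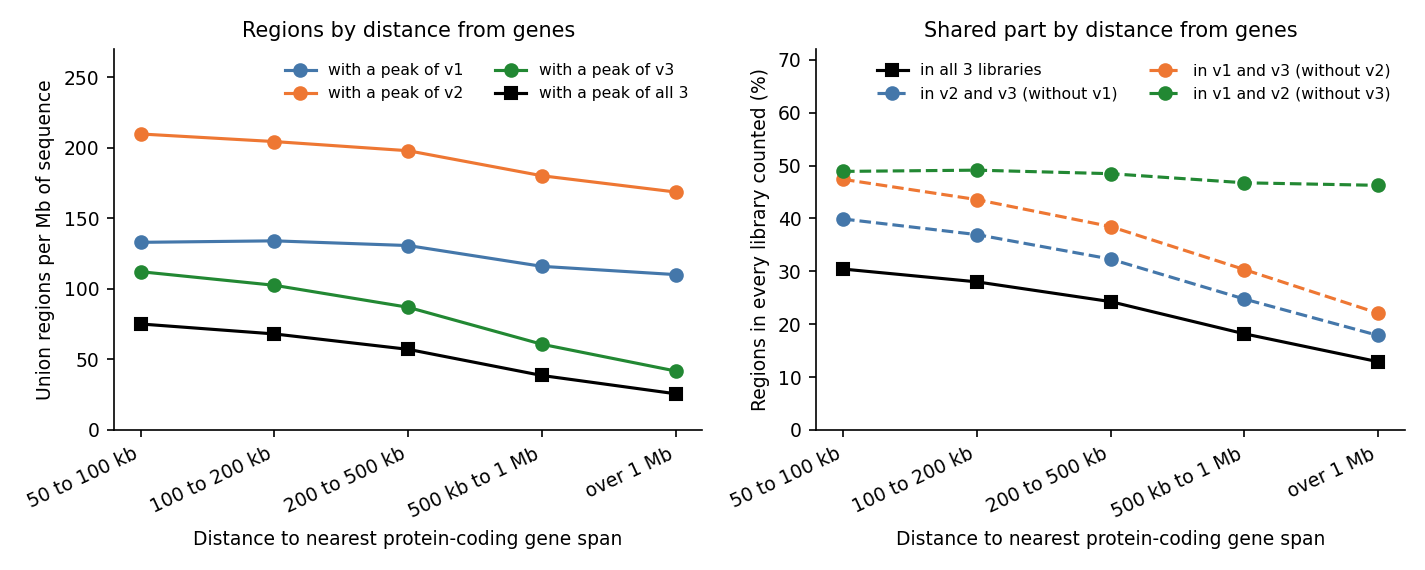
Left, union regions per Mb of sequence (vertical axis) with a peak of each library or of all 3, by distance to the nearest protein-coding gene span; right, the percentage of union regions with a peak in every library counted, for all 3 libraries and with each left out. The v3 line falls from 112 to 41.8 regions per Mb, and the line without v3 stays between 46.3 and 49.1%.

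Peaks of 1 width gave the same picture. Among v1 peaks of exactly 500 bp, the width of the narrowest peaks, 46.9% met both other libraries at 50 to 100 kb and 18.1% beyond 1 Mb. For 500-bp peaks of v2 these values were 22.0 and 10.8%. For those of v3 they were 46.8 and 48.3%, with no fall. Among peaks over 1000 bp, v3 peaks met both others in 93.5% of cases at 50 to 100 kb and in 93.4% beyond 1 Mb, whereas v1 went from 89.8 to 56.6%. The v3 peaks were thus fewer at greater distance, while the part of them that met both other libraries stayed level. On autosomes alone the shared part went from 30.7 to 13.0%.

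The shared far regions were narrower at the median than shared regions of the other distance classes. The median width was 1172 bp (quartiles 793 and 1724 bp) far from genes, against 1298 bp from 10 to 100 kb and 1429 bp in genes. In v1 a median of 739 bases was covered, against 952 for v2 and 880 for v3. Exactly 500 bp were covered in 42.9% of the regions by v1, in 28.5% by v2 and in 31.6% by v3. In 25780 regions, or 67.4%, each library had 1 peak, against 62.4% from 10 to 100 kb and 54.4% in genes. The bases common to all 3 had a median of 500 bp, or 57.1% of the region. Another 404 regions (1.06%) were joined through overlaps without any base common to all 3. Both percentages were close to those of the other distance classes, which ran from 56.4 to 59.5% and from 0.929 to 1.01%. The regions covered 51.6 Mb in all, 7.25% of far sequence; shared regions in genes covered 34.3% of gene spans. Width fell with distance, from a median of 1243.5 bp at 100 to 200 kb to 993.5 bp beyond 1 Mb.

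Next to the threshold the shared regions did not differ in width. There were 2389 from 90 to 100 kb with a median of 1261 bp and 2138 from 100 to 110 kb with a median of 1265 bp. The nearest just inside lay 100.002 kb from Kif18a at chr2:109441751-109444003, on the side of Bdnf, the gene of a neurotrophin, and was 2253 bp wide. The others just inside lay 100.003 kb from Fmo9 (1119 bp wide) and 100.007 kb from Tprg (518 bp). Just outside were regions 99.999 kb from Rassf10 (954 bp), 99.998 kb from Pcdh8 (2185 bp) and 99.997 kb from Dtwd2 (1983 bp). The members themselves had a median distance of 246 kb, with quartiles of 155 and 423 kb.

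The widest shared far region held Mir137, the gene of a miRNA known for its role in neuronal maturation and in neuropsychiatric genetics. It spanned chr3:118429874-118437272 (7399 bp), 124.837 kb from Dpyd, and its peaks covered 5165 bp in v1, 5917 bp in v2 and 7261 bp in v3. With 14 peaks it also had the most peaks, level with 2 others. The next widest lay in Lncpint, a lncRNA gene, at chr6:31165750-31173025 (7276 bp), where 5493 bp were covered in v1, 5843 bp in v2 and 6541 bp in v3. In both, v3 covered the most bases and v1 the fewest. A region of 6854 bp between Nectin1 and Thy1, which encodes a glycoprotein of the neuronal surface, had 3360 bp in v1, 5267 bp in v2 and 5220 bp in v3. A region between Chst1 and Syt13 spanned 6583 bp and one between Igfbp7 and Adgrl3, a latrophilin, spanned 6546 bp. The other region with 14 peaks outside the widest 5 lay between Fbn2 and Slc27a6 and measured 6088 bp; regions with 13 peaks lay between Slc7a11 and Noct (5837 bp) and between Mn1 and Cryba4 (5469 bp).

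The most remote regions lay over 2 Mb from any protein-coding gene, in 2 deserts. The farthest was chr14:90719124-90721477, 2248 kb from Pcdh20 in the desert shared with Pcdh9, both protocadherin genes. Its peaks covered 2269 bp in v1, 2205 bp in v2 and 1483 bp in v3. Another region in the same desert lay 2237 kb from Pcdh20. The other 3 of the 5 farthest lay on chromosome 18 between Celf4, which encodes a neuronal RNA-binding protein, and Pik3c3; the first of them was 2244 kb from a gene and had exactly 500 covered bases in each library. The widths of the 5 ran from 525 to 2354 bp.

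Gene deserts, taken as unbroken stretches of far sequence between protein-coding genes, held shared regions unevenly. Of 1532 deserts, with a median of 0.218 Mb of far sequence, 194 had none, a count not adjusted for length. Every one of the 204 deserts of 1 Mb or more had at least 1. The 204 deserts of 1 Mb or more held 39.9% of the regions in 52.1% of far sequence, at a median of 39.1 per Mb and a range from 0.435 to 167. The 10 deserts with the most regions held 2054, which is 5.37% of the regions in 3.47% of far sequence. The genes that border these 10 were of mixed kinds, and only some with a known role in the brain are described below. How often other deserts border such genes was not counted. The desert from Celf4 to Pik3c3 on chromosome 18 had the most, 292 regions in 4.31 Mb or 67.7 per Mb. The desert from Bcl11a, which encodes a transcription factor of cortical projection neurons, to Fancl on chromosome 11 had 263 in 2.01 Mb, or 131 per Mb. The desert from Arpp21, a gene of striatal and cortical neurons, to Pdcd6ip on chromosome 9 had 203 in 1.22 Mb, and its 167 per Mb were the highest density among deserts of 1 Mb or more. Union regions with a peak of v1 numbered 253 there, with a peak of v2 454 and with a peak of v3 328.

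The other deserts among the first 10 ran from 52.4 to 200 regions per Mb. The densest of them, from Usp25 to Cxadr on chromosome 16, had 197 regions in 0.984 Mb. Celf2 to Gata3 followed with 196, Zeb2 to Acvr2a with 193, Agtr1b to Tbl1xr1 with 183, Klhl29 to Apob with 181, Slc10a2 to Efnb2 with 178 and Slitrk5 to Gpc5 with 168. Zeb2 encodes a zinc finger factor of interneuron and glial development, Efnb2 a membrane-bound guidance ligand, and Slitrk5 a synaptic adhesion protein. In the desert of Slitrk5 the v1 and v2 lists had 674 and 875 union regions and v3 had 222, and 16.9% were shared. In the desert of Usp25 the counts were 306, 389 and 259, and 44.6% were shared. Among deserts of 1 Mb or more, Ccer1 to Atp2b1 (124 per Mb) and Id2 to Rnf144a (123 per Mb) also stood among the 5 densest; Id2 encodes an inhibitor of basic helix-loop-helix factors.

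**Figure D2:**
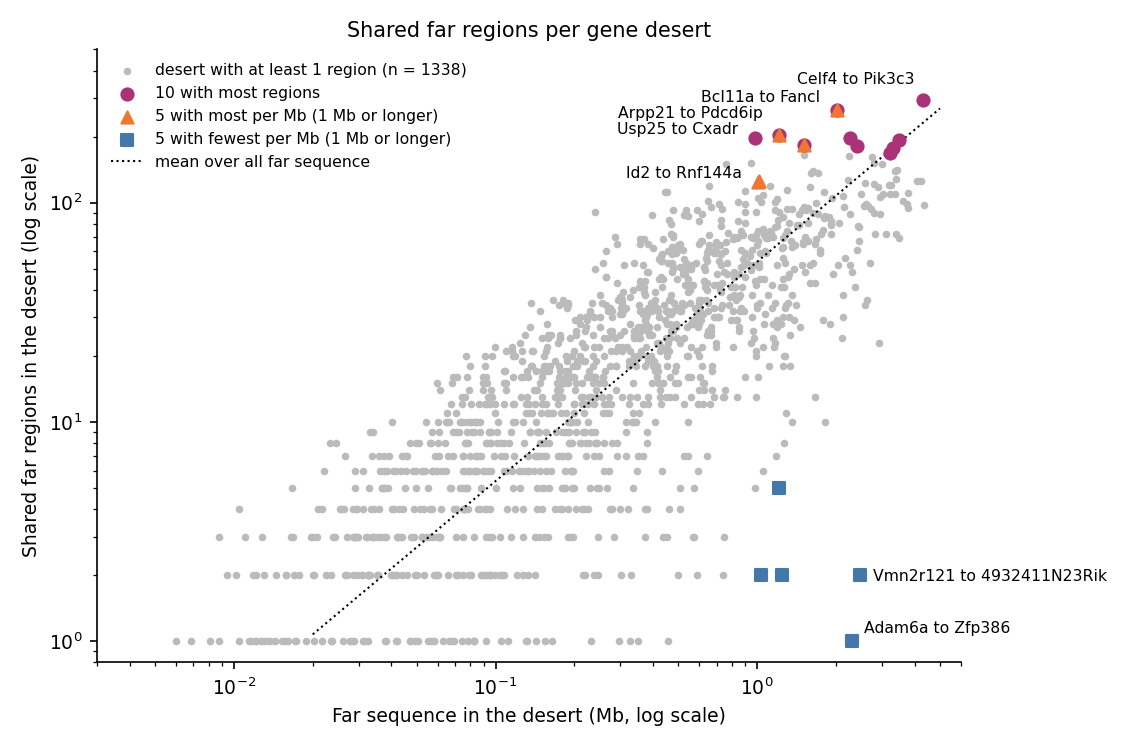
Number of shared far regions in each gene desert with at least 1 (vertical axis, log scale) against its far sequence in Mb (horizontal axis, log scale); coloured symbols are the deserts with the most regions and, among those of 1 Mb or more, the most and fewest per Mb, and the dotted line is the mean of 53.7 per Mb. The desert from Bcl11a to Fancl sits above the line with 263 regions, and that from Adam6a to Zfp386 far below it with 1.

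At the other end were deserts made of gene segments or lying on chromosome X. The desert from Adam6a to Zfp386 on chromosome 12 had 1 shared region in 2.30 Mb. It lies in the immunoglobulin heavy chain locus and held 168 gene segments, which are rearranged in B cells and are not counted as protein-coding genes in the table. Union regions there numbered 35 for v1, 8 for v2 and 1 for v3. The other 4 deserts of lowest density were on X: Vmn2r121 to 4932411N23Rik with 2 regions in 2.48 Mb, Tgif2lx1 to Pabpc5 with 2, Prr32 to Actrt1 with 2, and H2ab1 to Tgif2lx2 with 5. The gene spans of the immunoglobulin kappa locus (Igk) held 109 shared far regions and those of the T cell receptor alpha locus (Tcra) 65, while the whole heavy chain locus (Igh) held 6. Of all 38237 regions, 80 overlapped a gene segment itself.

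By chromosome, the density ran from 45.0 per Mb on chromosome 17 and 45.1 on chromosome 7 to 75.2 on chromosome 13, and was 15.6 on X. Shared regions up to 100 kb from genes were also fewest on X, at 49.8 per Mb, against 121 to 176 on the autosomes. The ratio of far to near density on X, 0.314, was within the autosomal range of 0.302 on chromosome 17 to 0.489 on chromosome 13. Union regions per Mb of far X sequence were 32.1 with v1, 72.8 with v2 and 26.3 with v3, so X was low in each list. On chromosome 7 the share found in all 3 was 29.8%, the highest of any chromosome, with 80.1 v1, 111 v2 and 83.8 v3 regions per Mb.

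**Figure D3:**
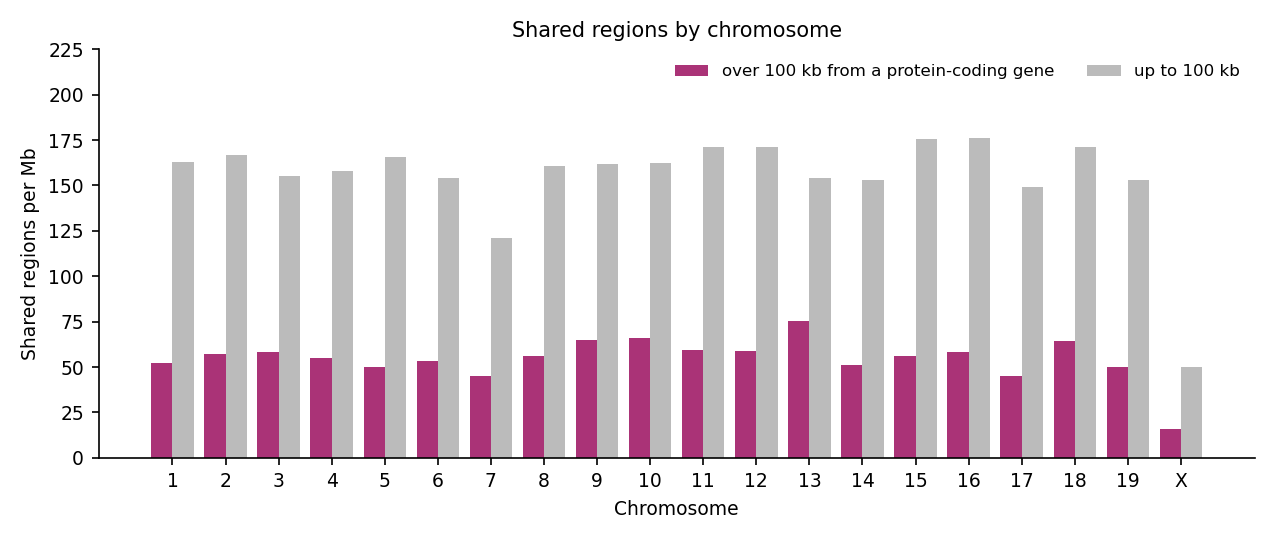
Shared regions per Mb on each chromosome (bars from 0), for sequence more than 100 kb from a protein-coding gene (purple) and for sequence up to 100 kb (grey). Far density is highest on chromosome 13 at 75.2 per Mb and lowest on X at 15.6, where the grey bar is also lowest at 49.8.

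Shared far regions came in clusters along the chromosomes. The nearest other shared far region was a median of 2619 bp away, 43.9% had another within 2 kb and 79.6% within 10 kb, while 2.33% had none within 50 kb. In genes the median distance between shared regions was 506 bp. Of 5856 windows of 100 kb that were wholly far sequence, 656 (11.2%) held no shared region, the median was 4, and 90 held at least 20. The variance of the counts was 4.46 times their mean. The fullest window, chr6:31100001-31200000, had 44 regions covering 81.5% of its bases and lay over Lncpint. The window at chr14:108700001-108800000, with 39 regions, lay 110 kb from Slitrk1, which encodes a synaptic adhesion protein. The next 3 were neighbours on chromosome 16, starting at chr16:77400001-77500000 with 34, followed by 33 and 36, over and beside the lncRNA gene Mir99ahg.

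Noncoding genes were overlapped by 7687 of the shared far regions, or 20.1% (19.7 to 20.5%). All genes not typed as protein-coding were counted here, so antigen receptor loci such as Igk and Tcra are included. Noncoding gene spans made up 12.1% of far sequence, and 13.7% of far regions found in a single library overlapped one. Nearly all of this was lncRNA genes, which were overlapped by 18.7% of the shared far regions and make up 10.2% of far bases. Pseudogenes were overlapped by 0.931% and make up 1.02%. Of 2112 lncRNA genes lying wholly in far sequence, 1497 (70.9%) overlapped at least 1 shared far region. The same held for 66 of 648 small nucleolar and spliceosomal RNA genes and for 5 of 30 tRNA genes. Genes only partly in far sequence were left out of these counts, which were not adjusted for gene length. A longer span can overlap a region more easily, so the gene types cannot be compared by them. Regions over a noncoding gene had a median width of 1305 bp and the others of 1143 bp. The median distance of a shared far region to the nearest noncoding gene was 29.2 kb, and another 7687 regions (20.1%), the same number by coincidence, lay more than 100 kb from every gene in the table.

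A few lncRNA genes held large numbers of these regions. 5730522E02Rik, in the Bcl11a desert, held 124 regions, 209 per Mb of its far sequence of 594 kb. A930011G23Rik on chromosome 5 held 107, or 284 per Mb of its far sequence. Mir99ahg, known as the host gene of Mir99a although its span in the table ends before that miRNA, held 76 in 229 kb, or 332 per Mb. Gm30382 on chromosome 3 held 75, or 284 per Mb. The 5 genes counted as noncoding with the most regions also included Igk, with 109. Outside these 5, and named after their values were seen, Snhg14 held 63 at 134 per Mb of its far sequence. Mir100hg held 55 at 230 per Mb, Lncpint 54 at 432 per Mb and Pvt1, the neighbour of Myc, 42 at 247 per Mb. Snhg14 is the imprinted transcript that runs antisense to Ube3a in neurons. Of the span of Snhg14, 472 of 1177 kb were far sequence. Genes named for their many regions are dense in them by that choice.

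A smaller share of lncRNA starts overlapped shared regions in far sequence than near genes. Of 2066 start windows in far sequence 761 (36.8%, 34.8 to 39.0%) overlapped a shared region, against 5074 of 9508 (53.4%, 52.4 to 54.4%) up to 100 kb from a protein-coding gene. The 673 shared far regions with a start window had a median width of 1799 bp, against 1164 bp for the rest, and their median covered bases were 1252 in v1, 1500 in v2 and 1443 in v3. Windows in a shared far region had a median of 46.7% GC and 4 CpG, and 2.23% of them were CpG-rich, meaning at least 55% GC with an observed over expected CpG ratio of at least 0.6. Far windows in no region had a median of 43.0% GC and 2 CpG, and 0.111% were CpG-rich. Near lncRNA windows in shared regions had 52.3% GC and 23.5% CpG-rich windows, and protein-coding windows in shared regions 60.7% and 56.2%. The CpG-dense start of 5730522E02Rik printed above was therefore of a rare kind among far lncRNA starts.

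Motif letters were searched on both strands of the same 300-base windows. The GC box GGGCGG, the letters bound by SP factors, was found in 8.94% of the windows in shared far regions, in 4.42% of far lncRNA windows in regions of fewer libraries and in 3.67% of those in no region, while 35.9% of all 32619 windows in the table held it. It was thus more frequent in shared far windows than in other far lncRNA windows and less frequent than in all windows. The AP-1 letters TGANTCA were found in 10.5% of windows in shared far regions, 12.04% in regions of fewer libraries, 9.47% in no region and 7.85% of all. For the neuronal E-box CAGATG these values were 22.2, 22.4, 22.8 and 17.1%, nearly level among far windows. For the TATA box letters TATAAA they were 17.5, 20.6, 22.5 and 13.7%, highest in far windows without a peak. The cyclic AMP response element TGACGTCA was in 0.526% of windows in shared far regions, 0.445% of far windows in no region and 1.80% of all. The ETS letters CCGGAAGT were in 0.920, 0.668 and 3.91%. None of these letter strings contains another on either strand.

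The genes of miRNAs lay in shared far regions often. Of 118 miRNA genes in far sequence, 70 (59.3%, 49.9 to 68.3%) overlapped a shared region, whereas such regions cover 7.25% of far bases. A miRNA gene lay in a shared region in 45.8% of 832 cases inside protein-coding genes, in 56.9% of 109 within 10 kb and in 32.5% of 169 from 10 to 100 kb. A peak of v1 was at 66 of the 118 far miRNA genes, of v2 at 79 and of v3 at 71. Counted by locus, with genes less than 10 kb apart joined, 29 of 70 far loci (41.4%) had a gene in a shared region, against 51.4% in protein-coding genes, 56.8% within 10 kb and 40.7% from 10 to 100 kb. The far share was above that from 10 to 100 kb when counted by gene and close to it when counted by locus. The Mir344 genes of chromosome 7, spread over 402 kb, still counted as several loci. Most of the 70 genes lay in 2 clusters, which were singled out after their values were seen.

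The cluster from Mir379 to Mir3072 on chromosome 12, part of the imprinted Dlk1-Dio3 domain and expressed in neurons, had 36 of 39 genes in 11 shared regions within 38.9 kb. These regions were 1173 to 3710 bp wide with a median of 2194 bp, and the covered bases summed to 22544 in v1, 24818 in v2 and 21099 in v3. The 3 genes left out, Mir495, Mir300 and Mir453, had peaks of v1 and v2 and none of v3. The Mir344 cluster on chromosome 7 had all 13 genes in shared regions, 13 regions over 402 kb with a median width of 2101 bp. Covered bases there summed to 20350 in v1, 20358 in v2 and 22186 in v3. The sums of the libraries were thus close to each other over both clusters, in regions chosen for a peak of all 3. Single regions differed more: that of Mir541 had 2815 bp covered in v1, 3142 bp in v2 and 1511 bp in v3. The seeds GUCAGGC and AUAUAAC printed above recur within these clusters.

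Outside the clusters, the widest region with a miRNA gene after that of Mir137 held Mir6368 on chromosome 13 (5338 bp; 3211 bp covered in v1, 5174 bp in v2 and 3676 bp in v3). Within the clusters, the region of Mir3072 was 3710 bp wide, that of Mir381, Mir487b, Mir539 and Mir544 was 3539 bp, that of Mir344-2 was 3444 bp, that of Mir344f was 3252 bp and that of Mir379 was 3247 bp. The region of Mir344-2 had 1246 bp covered in v1, 1833 bp in v2 and 3382 bp in v3. Of brain or widely studied miRNA genes named after their values were seen, Mir124a-2 lay in a region of 1337 bp and Mir125b-1 in one of 2041 bp. Mir29a and Mir29b-1 shared a region of 906 bp, Mir222 lay in one of 919 bp, Mir100 in one of 648 bp and Mir99a in one of 513 bp. In the Mir99a and Mir222 regions each library covered exactly 500 bp.

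Of the 48 far miRNA genes outside shared regions, 15 lay in a region of fewer libraries and 33 in none. Mirlet7c-1, the neighbour of Mir99a, had a v2 peak only, and Mir125b-2 had peaks of v2 and v3. Mirlet7a-2, next to Mir100, and Mir221, next to Mir222, had no peak. Members of 1 miRNA cluster were therefore not always covered together.

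**Figure D4:**
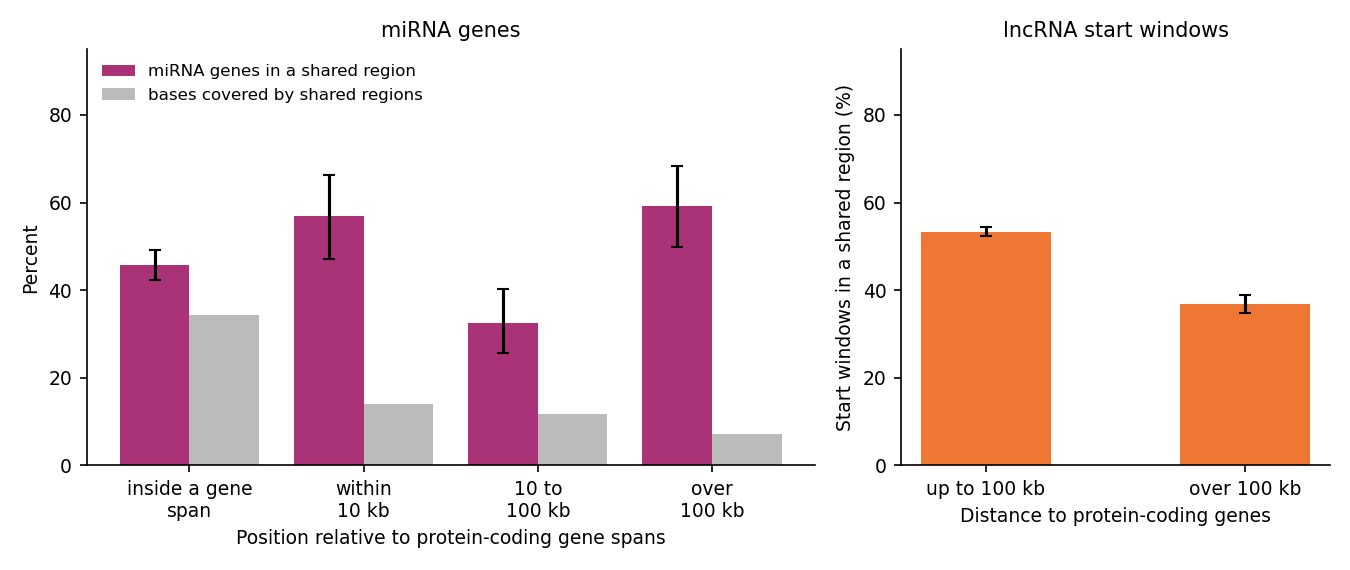
Left, percentage of miRNA genes that overlap a shared region (purple, with exact 95% intervals) beside the percentage of bases covered by shared regions (grey), by position relative to protein-coding gene spans; right, percentage of lncRNA start windows in a shared region with exact 95% intervals. Far miRNA genes reach 59.3% where shared regions cover 7.25% of bases, and far lncRNA starts reach 36.8%.

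Shared far regions were also described by their nearest protein-coding genes. Genes were grouped in lists, and each list was described by the regions nearest to its genes per Mb of far sequence nearest to them; over all genes this was 53.7 per Mb, with a median of 49.6 over 992 single genes with at least 0.2 Mb of far sequence. Neural developmental transcription factors had 1953 regions at 60.8 per Mb and a median of 56.3. That was 5.11% of the regions, close to the 4.51% of far sequence that these genes border. Of the 94 that border far sequence 87 (92.6%) had at least 1, against 2168 of 2582 over all protein-coding genes (84.0%). Mef2c, which encodes an activity-regulated factor, had 129 regions at 139 per Mb, Bcl11a 108 at 107 per Mb and Zeb2 106 at 60.6 per Mb. Adhesion and axon guidance genes had more regions, 3597, but a lower density of 36.4 per Mb and a median of 33.2, since they border 13.9% of far sequence and have 9.41% of the regions. Of the 98 that border far sequence 94 (95.9%) had at least 1 region, the highest share of any list. These shares were not adjusted for far sequence, which was 98.9 Mb for this list and 32.1 Mb for the transcription factors. Adgrl2, a latrophilin, had 171 at 88.1 per Mb, Cdh11, a cadherin, 140 at 67.8 per Mb, and Efnb2 123 at 74.3 per Mb. The first 3 genes of this list were thus denser than the list.

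Ion channel and neurotransmitter receptor genes had 1065 regions at 47.5 per Mb and a median of 44.3, with at least 1 region at 72 of 79 genes that border far sequence (91.1%, against the 84.0% of all genes). Kcnt2, a sodium-activated potassium channel, had 69 at 49.5 per Mb, Kcna4 55 at 68.9 per Mb and Htr2a, a serotonin receptor, 52 at 123 per Mb. Drd1, the dopamine receptor of direct-pathway striatal neurons, had 37 at 196 per Mb and was named after its values were seen. Chemosensory receptor genes, used in sensory epithelia, had 64 regions at 19.3 per Mb, and only 31 of 1520 border far sequence. The regions of Tas2r134 (15), Tas2r119 (15) and Olfr1324 (12) made up most of them. Of keratin-associated, defensin and secretoglobin-type genes, which are used in skin and glands, 15 border far sequence, and all 21 regions, at 22.6 per Mb, were nearest to Defb41. These 2 lists rest on 3.31 and 0.928 Mb of far sequence. The order of the first 3 lists and all genes was kept when both flanking genes were counted, with 63.9, 40.6 and 49.5 per Mb against 53.7.

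**Figure D5:**
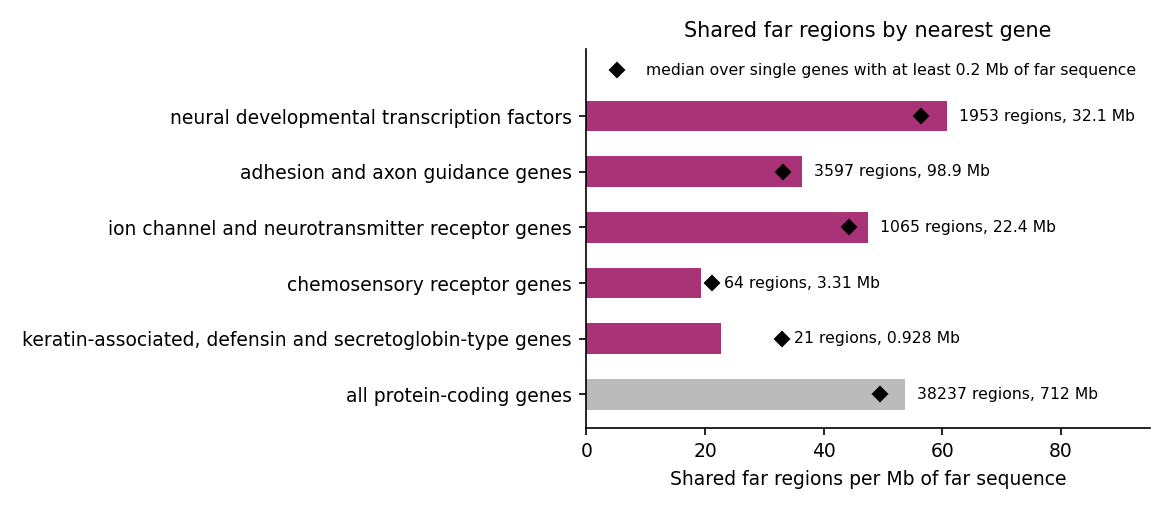
Shared far regions per Mb of far sequence nearest to the genes of each list (bars from 0), the median over single genes with at least 0.2 Mb of far sequence (diamonds), and the number of regions and Mb behind each bar. Neural developmental transcription factors reach 60.8 per Mb, above the 53.7 of all protein-coding genes, and adhesion and axon guidance genes 36.4, below it.

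Coverage by the 3 libraries was compared within the shared regions. Covered bases were called higher or lower at a ratio of 1.5-fold, and with 1 library a version these ratios compare libraries. The v2 peaks covered at least 1.5-fold more bases than v1 in 9396 shared far regions (24.6%), against 22.5% of all shared regions, and at least 1.5-fold fewer in 1612 (4.22%), against 3.45%. The v3 peaks covered more than v1 in 9308 (24.3%), against 23.2%, and fewer in 3665 (9.58%), against 7.69%. They covered more than v2 in 4322 (11.3%), against 11%, and fewer in 6428 (16.8%), against 14.9%. The percentages of shared far regions were near those of all shared regions, and the counts were read as a property of the lists. By mean peak width in place of covered bases, the order of v3 and v2 turned, with v3 higher in 8711 regions and lower in 6614. The median log2 ratio of v2 to v1 was 0.05, that of v3 to v1 0.03 and that of v3 to v2 0. The library with the most covered bases was v2 in 36.2%, v3 in 34.4% and v1 in 12.4%, with ties in 17.0%.

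Single regions departed much further. At chr2:128411432-128415422, in Morrbid, a lncRNA gene beside the apoptosis gene Bcl2l11, v1 covered 500 bp, v2 3725 bp and v3 3783 bp, so that v2 covered 7.45-fold and v3 7.57-fold the bases of v1. In the Arpp21 desert at chr9:112794324-112798296, v1 covered 500 bp, v2 3075 bp and v3 3517 bp, a v3 over v1 ratio of 7.03. In both, v1 had only a peak of the narrowest width where the others had wide ones. The opposite was found 162.54 kb from Bcl11a at chr11:24336098-24340952, where v1 covered 3753 bp, v2 4375 bp and v3 500 bp, a v3 over v1 ratio of 0.133. These extremes were chosen for their ratios and have no replicate check.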

How the data were processed

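The authors deposited 1 list of peaks per library as chromosome, start and end, with no score or read count. ArchR, MACS2 and the build mm10 are named per the submitters' processing notes; the aligner, versions, calling threshold and excluded regions were not given in the sources used here. Peaks of the 3 libraries were merged where they overlapped by at least 1 bp. Distances were taken to the spans of 21631 protein-coding genes of a RefSeq table of GRCm38.p6, which gives no strand; the other 27923 genes counted as noncoding. Far sequence was all sequence of the span examined on 20 chromosomes beyond 100 kb. The distance code was tested on simulated data. Covered bases are those under a library's peaks in a region. Python 3.11.15, numpy 2.4.6, pandas 2.3.3, scipy 1.17.1 and matplotlib 3.10.9 were used.

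The members, the gene lists and the rules for naming were chosen with earlier results of these data known. Named were the 5 widest and 5 farthest regions and the 5 with the most peaks, deserts with the most regions and the extremes per Mb, the 5 noncoding genes with the most regions, 10 miRNA genes by region width, 3 regions on each side of the threshold, 3 genes a list, 2 regions by ratio in each direction for each pair of libraries (of which some are given), and the 5 fullest windows. The start windows shown were picked from the genes named. Alternatives changed the distance, the genes, the overlap, the peaks, the libraries and the chromosomes.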

Additional observations from a re-analysis of the deposited data

How the results depend on the processing

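Of 76 alternative values 35 were classed as close to the reported ones and 41 as moved. With 1 library a version no call could be lost. Close was a wide class for counts and densities. It took in 53416 regions beyond 50 kb and 27905 where each library had to cover 50% of the region, against 38237. It also took in 66.5 per Mb without v1, against 53.7. Percentages and median width were held to narrow intervals. These were 23.2 to 23.6% for the shared part, 19.7 to 20.5% over a noncoding gene, and 1164 to 1182 bp. Values classed as moved follow. The number of shared far regions, 38237, became 23337 beyond 200 kb, 7687 with distance taken to any gene, 21454 with the lists thinned to equal peak numbers, 15563 with peaks wider than 500 bp and 77940 without v3. The shared part of far regions, 23.4%, became 25.04% beyond 50 kb, 21.2% beyond 200 kb, 18.7% with any gene, 17.1% where each library had to cover 50% of the region, 15.5% with equal peaks, 31.1% without v1, 36.5% without v2 and 48.3% without v3. The density of 53.7 per Mb became 30.1 with equal peaks, 21.9 with wider peaks and 109 without v3. The median width of 1172 bp became 1203 beyond 50 kb, 1132 beyond 200 kb, 1079 with any gene, 957 with 50% coverage, 1259 with equal peaks, 1647 with wider peaks, 999 without v1, 953 without v2 and 766 without v3. The part over a noncoding gene, 20.1%, became 21.2% beyond 50 kb, 18.7% beyond 200 kb, 20.6% with equal peaks, 23.2% with wider peaks, 19.6% without v1 and 17.0% without v3; distance to any gene gives no such value by construction. At 2-fold, v2 exceeded v1 in 3982 regions and fell below it in 464, v3 exceeded v1 in 3907 and fell below it in 1435, and v3 exceeded v2 in 1222 and fell below it in 2596. By mean peak width, v2 was lower than v1 in 3014 and v3 higher than v2 in 8711. Beyond 200 kb, chemosensory receptor genes had 9.07 and keratin-associated, defensin and secretoglobin-type genes 40.1 regions per Mb. Fewer genes, peaks, libraries or bases counted follow from the construction of these alternatives; causes beyond that were not tested.

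The slope of sharing with distance was recomputed without each library, by peak width and on autosomes after the data had been seen. No paired analysis was possible because each version had 1 library and no test was run. Depth, nuclei per library and the authors' calling threshold are unknown, so peak numbers could not be set against them. Gene spans are those of 1 table, without strand, so starts came only from the promoter windows. A missing peak does not show closed chromatin.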

Other observations

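Dense blocks of shared far regions, singled out after their positions had been seen, lay at a few places far from protein-coding genes. At the start of chromosome 9, chr9:2999869-3038418, 16 shared regions filled 62.5% of 38.6 kb, 297 kb from the nearest protein-coding gene. Peaks there covered 18484 bp in v1, 19360 bp in v2 and 22566 bp in v3. On chromosome 2, chr2:98662179-98667456 held 3 shared regions in 5.28 kb, 1031 kb from a gene, with 2461 bp covered in v1, 2313 bp in v2 and 2600 bp in v3. On chromosome 14, a single region of 4.32 kb at chr14:19415585-19419899 had 4024 bp covered in v1, 4281 bp in v2 and 4261 bp in v3. The sources used here do not name any regions excluded from peak calling. Whether repeated sequence contributed to the peaks at these places, or at the region described next, was not tested.

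The widest shared region of all classes, chr17:39839904-39852254 with 12351 bp, lay 98.3 kb from a protein-coding gene and so just missed the selection. Peaks covered 12279 bp of it in v1, 5678 bp in v2 and 5833 bp in v3.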
